A study of Homo sapiens with 4 samples.

Results

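MKN1 and AGS, a pair of human gastric carcinoma cell lines, were compared through all 4 RNA-seq libraries of the series, 2 from each line. The rows compared were those of the deposited FPKM table (fragments per kilobase of transcript, scaled to the mapped fragments of the library) that reached 1 FPKM in at least 2 of the 4 libraries, which kept 13758 of 57815 rows. Per the labels, each line contributed 1 library of cells carrying a scrambled control siRNA (siScramble, genotype WT) and 1 library of cells carrying an siRNA against the homeobox gene HOXB9 (siHOXB9, genotype HOXB9 knockdown), and all 4 cultures received Lipofectamine 2000. The series was made to look for genes downstream of HOXB9, and every library was labelled as a gastric cancer cell. The siRNA was a block in the comparison, so that a difference between the lines is the mean of the difference under siScramble and the difference under siHOXB9.

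AGS was established from a gastric adenocarcinoma and MKN1 from a lymph node metastasis of an adenosquamous gastric carcinoma. Epithelial cells are held together by tight junctions, adherens junctions and desmosomes, and lines of gastric carcinoma range from epithelial cells that keep programs of stomach or intestine to mesenchymal-like cells in which ZEB, SNAI and TWIST factors are made and junction genes are silent. AGS is known for an activating CTNNB1 mutation and absent E-cadherin protein. Each line is a single line, so a difference between them is a difference between these cell lines and not between classes of tumours. The 2 libraries of a line differ in their siRNA and are not replicates of 1 condition, and the labels name no separate cultures, so the p-values measure only the spread between these 4 libraries, which may be technical. In bulk RNA, fewer cells of a type and less RNA per cell cannot be told apart.

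Depth, estimated from the steps between low FPKM values, was 10710000 to 12960000 fragments a library. In a transcript of 2 kb, 3 fragments were then worth 0.116 to 0.14 FPKM, and values near or under this level are not distinguishable from 0. Between 12537 and 12770 rows reached 1 FPKM in a library. Over the tested rows, Pearson's r of log2(FPKM + 1) was 0.983 between the libraries of AGS, 0.983 between those of MKN1 and 0.729 to 0.747 between libraries of different lines, where rows are not independent replicates. HOXB9, the target of the siRNA, was at 16.4 FPKM under siScramble and 4.45 under siHOXB9 in AGS, and at 1.14 and 0.218 in MKN1, lower under siHOXB9 in both lines as its labels say. Of 20 blood cell markers 3 were tested (LYZ, which gastric glands also make, CD68 and CORO1A), and of 14 endothelial markers 2 were tested (EGFL7 and ESAM).

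The lines differed at 5109 rows, or 37.1% of those tested, at an adjusted p under 0.05 and a difference of at least 1 on the log2(FPKM + 1) scale (limma, two-sided, Benjamini-Hochberg). Of all tested rows, 16.2% were higher in MKN1 (2229 rows) and 20.9% were lower (2880 rows). Every one of the 5109 differences had the same sign under siScramble and under siHOXB9. The call itself requires this. The gap between the siScramble and siHOXB9 differences is the spread of the fit, so a row with opposite signs could not pass. The shared sign is therefore not separate evidence that the siRNAs agree. The difference was at least 3 in size for 492 rows higher and 435 rows lower in MKN1, and at least 5 for 133 and 101 rows. The pseudocount of 1 makes these differences smaller than the true log2 ratio for genes of low level. The median difference over all tested rows was -0.10, and centring each library on its median gene moved it to 0.088 and the share of called rows that were higher in MKN1 from 43.6% to 53.4%. Without the MKN1 siScramble library the fit called 1855 rows lower instead of 2880. Fits without 1 library hold 3 libraries and no siRNA term, and of 588 members of the gene lists called with all libraries 205 were not called in at least 1 of these 4 fits. Calls named below that were lost in this way are marked as such, most with that fit's adjusted p.

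A row that is silent in 1 line enters the comparison through the other line alone, and 1006 of the higher rows were under 1 FPKM in both AGS libraries and 901 of the lower rows were under 1 FPKM in both MKN1 libraries. Among the 11547 rows that reached 1 FPKM in both lines, 10.6% were higher in MKN1 and 17.1% lower. These shares and the median are the background against which the gene groups are described. The groups were given by lists of known function, and genes beyond the 15 largest differences in each direction, the 4 largest of a list and a standing set of lineage and driver genes were picked for mention after their values were seen. Values are given in FPKM, first siScramble and then siHOXB9, and differences as MKN1 minus AGS in log2(FPKM + 1).

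**Figure D1:**
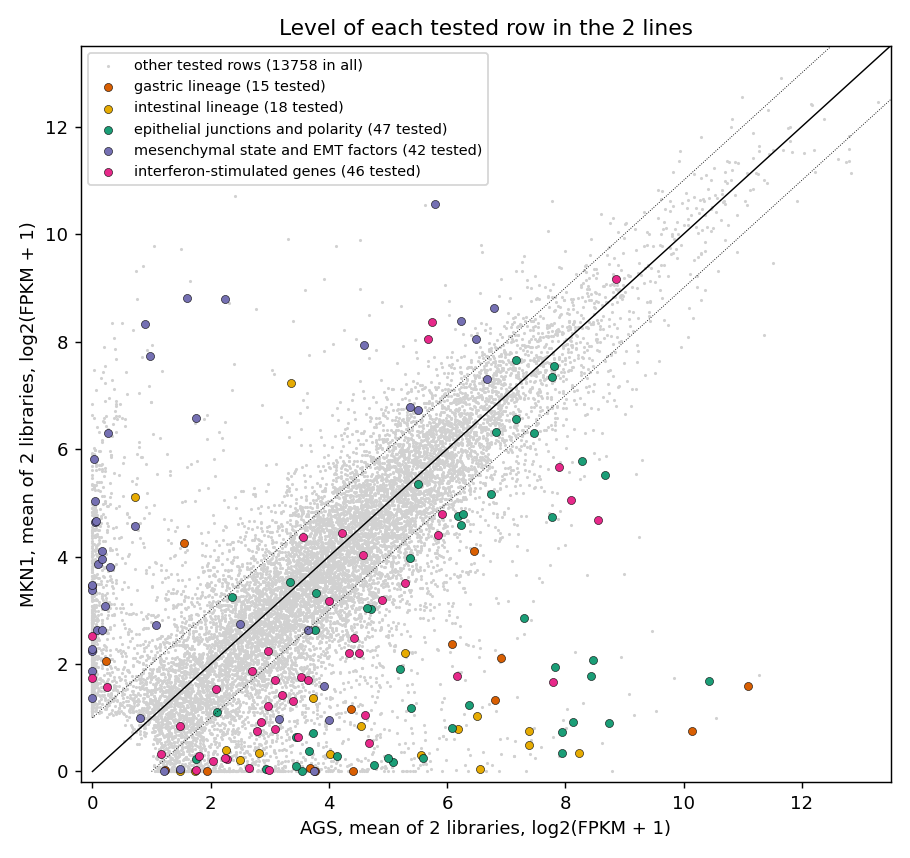
Mean log2(FPKM + 1) of the 2 AGS libraries (horizontal axis) against that of the 2 MKN1 libraries (vertical axis) for 13758 tested rows in grey, with 5 gene lists in colour. The solid line marks equal levels and the dotted lines a difference of 1, and the gastric, intestinal and junction genes lie mostly under the lines while the mesenchymal genes lie mostly above them.

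The epithelial junction and polarity genes were lower in MKN1 as a group. Of 52 names, 51 had a row and 47 were tested. Of these, 37 were lower in MKN1, 0 were higher and 10 passed in neither direction, with a median difference of -3.01. No tested member was under 1 FPKM in both AGS libraries, whereas 16 were under 1 FPKM in both MKN1 libraries and had to differ to be tested. Among the 31 members at 1 FPKM in both lines, 21 were lower.

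EPCAM, the epithelial cell adhesion molecule used to recognise carcinoma cells, was at 328 and 359 FPKM in AGS and at 2.14 and 2.70 in MKN1, a difference of -6.66 (SE 0.176, adjusted p = 6.6e-07, limma). SPINT2, an inhibitor of membrane serine proteases, was at 1434 and 1337 FPKM in AGS and at 2.27 and 2.13 in MKN1, a difference of -8.76. Its target proteases followed the same pattern: PRSS8 (prostasin) was at 381 and 477 FPKM in AGS and 0.697 and 1.05 in MKN1, and ST14 (matriptase) at 294 and 265 against 0.821 and 0.976. Over these 4 genes the lowest AGS value was 265 FPKM and the highest MKN1 value 2.70.

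Claudins and tight junction scaffolds were lower too. CLDN7 was at 403 and 307 FPKM in AGS and 3.21 and 3.21 in MKN1, and CLDN4 at 372 and 443 against 36.4 and 54.4. CLDN6, a claudin of embryonic epithelia, was at 231 and 260 FPKM in AGS and 0.0784 and 0.512 in MKN1. OCLN (occludin), TJP3, CGN (cingulin) and MARVELD2 differed by -4.91, -5.28, -4.21 and -3.28, and the scaffold TJP1 by -1.61. CLDN1 at 9.81 and 16.6 FPKM in AGS and 8.34 and 9.57 in MKN1 did not pass the test.

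The factors that keep epithelial genes active were lower as well. OVOL2, a repressor of ZEB1, was at 30.2 and 31.9 FPKM in AGS and 0.231 and 0.136 in MKN1 (-4.76). ESRP1, the splicing factor that sets epithelial isoforms, was at 47.7 and 46.8 FPKM against 0.235 and 0.151 (-5.34). GRHL2, GRHL3, OVOL1 and ELF3 differed by -3.35, -3.86, -2.89 and -3.04. ESRP2 and AP1M2, an adaptor that sorts proteins to the basolateral membrane, kept 23.9 to 78.8 FPKM in MKN1 and differed by -1.46 and -1.17.

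The cadherin and catenin members were mixed. CDH1, which encodes E-cadherin, was low in both lines, at 1.63 and 3.28 FPKM in AGS and 0.0752 and 0.285 in MKN1. Its difference of -1.51 passed (adjusted p = 0.0010) with all libraries but not without the MKN1 siScramble library (-1.38, adjusted p = 0.11) or the MKN1 siHOXB9 library (-1.64, adjusted p = 0.090, limma). CTNNA1 (alpha-catenin) was at 131 and 156 FPKM in AGS and 198 and 203 in MKN1, JUP (plakoglobin) at 205 and 232 against 144 and 178, and CTNNB1 (beta-catenin) at 106 and 118 against 76.9 and 81.2. None of these 3 catenin genes reached the size threshold, with differences of 0.49, -0.45 and -0.50. Another catenin gene, CTNND1, was called lower, with differences of -1.57 to -1.285 in the fits without 1 library. The desmosomal gene DSG2 was at 43.1 and 45.9 FPKM in AGS and 33.7 and 46.6 in MKN1 and did not pass, while DSP, PKP2 and DSC2 differed by -1.40, -3.30 and -3.01.

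Promoters of junction genes are known to hold E-boxes that ZEB and SNAI repressors bind, and ZEB1 and SNAI2 were higher in MKN1. The promoters of 2 strongly lower members, CRB3 (a polarity protein) and RAB25 (a recycling GTPase), are shown as examples that hold such E-boxes. They are RefSeq promoter windows of GRCh38.p14, from 250 bases before to 50 after the gene start, written 5′ to 3′ on the gene's strand, with capitals marking CACCTG or its reverse complement CAGGTG.
CRB3, chr19:6464021-6464320, plus strand: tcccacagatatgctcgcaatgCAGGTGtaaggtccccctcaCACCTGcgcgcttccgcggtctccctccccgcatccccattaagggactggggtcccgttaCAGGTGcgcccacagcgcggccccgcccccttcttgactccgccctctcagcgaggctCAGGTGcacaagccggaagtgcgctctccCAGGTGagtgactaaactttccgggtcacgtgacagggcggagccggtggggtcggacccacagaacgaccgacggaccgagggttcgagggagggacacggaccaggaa
RAB25, chr1:156060910-156061209, plus strand: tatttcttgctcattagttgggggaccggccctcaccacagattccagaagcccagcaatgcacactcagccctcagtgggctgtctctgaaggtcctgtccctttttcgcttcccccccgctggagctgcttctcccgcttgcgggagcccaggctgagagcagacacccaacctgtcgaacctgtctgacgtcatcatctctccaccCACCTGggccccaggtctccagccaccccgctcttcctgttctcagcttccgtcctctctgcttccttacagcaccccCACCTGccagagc
The CRB3 window holds the motif 5 times and the RAB25 window 2 times. CRB3 was at 85.3 and 78.3 FPKM in AGS and 0.850 and 1.99 in MKN1 (-5.14), and RAB25 at 238 and 253 against 0.634 and 0.699 (-7.21). Only 19 of the 37 junction genes lower in MKN1 had a window. The motif was found in 10 of these, and not in CLDN7, SPINT1 or TJP3. It was in 18.2% of the windows of tested protein-coding genes and in 20.7% of 27266 windows in all, but with fewer than 80% of the lower genes covered these shares do not show whether the lower genes differ. A match of these letters describes the sequence, and binding was not measured.

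Keratin genes differed by member, and some stayed at like levels. KRT8 and KRT18, the pair that forms the filaments of simple epithelia, were among the most abundant transcripts of both lines: KRT8 was at 1566 and 1880 FPKM in AGS and 1077 and 1230 in MKN1, and KRT18 at 743 and 837 against 654 and 721. Neither reached the size threshold (-0.58 and -0.20). KRT19 was at 838 and 1001 FPKM in AGS and 2.02 and 2.66 in MKN1 (-8.11, adjusted p = 5.1e-07, limma). KRT7, a keratin of ductal and glandular epithelia, was at 3.73 and 4.98 FPKM in AGS and 1710 and 1629 in MKN1 (8.29). KRT81, a hair keratin also made by carcinoma lines, was at 2.26 and 1.44 FPKM against 876 and 811 (8.23), and KRT86 and KRT80 differed by 3.83 and 2.58. KRT81 and KRT86 are near-identical copies, so the split of reads between them is uncertain. The list used for simple-epithelial keratins also held KRT80, KRT81 and KRT86. Of its 7 tested members 4 were higher, these 3 and KRT7, 1 was lower and 2 passed in neither direction.

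Markers of squamous epithelium were checked because MKN1 came from an adenosquamous tumour. KRT5, KRT14 and TP63, the defining genes of the basal squamous layer, did not reach 1 FPKM in any library, and 22 of the 35 listed genes were under 1 FPKM in all 4. Of 13 tested genes 4 were higher in MKN1, 4 were lower and 5 passed in neither direction. KRT17, a keratin of stressed and basal epithelium, was at 10.6 and 24.9 FPKM in AGS and 812 and 948 in MKN1 (5.66), and TRIM29 at 1.57 and 3.29 against 77.3 and 102 (4.76). The Notch ligand JAG2 and KRT16 were the other higher members (4.0 and 1.88). The lower members GJB2, KLK7, KRT13 and PI3 differed by -3.48, -2.27, -2.17 and -1.04, and without either MKN1 library 2 members were called lower. KRT16 did not pass without 1 AGS library (adjusted p = 0.053 to 0.060), KRT13 without 1 MKN1 library (adjusted p = 0.055 to 0.056) and PI3 in any of the 4 fits without 1 library (adjusted p = 0.060 to 0.20, limma).

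The mesenchymal group ran opposite to the junction genes. Of 42 tested genes of the mesenchymal state, 32 were higher in MKN1, 7 were lower and 3 passed in neither direction, with a median difference of 2.52. Of the 42, 19 were under 1 FPKM in both AGS libraries and 3 in both MKN1 libraries, and of the 20 at 1 FPKM in both lines 13 were higher and 4 lower. VIM, the intermediate filament vimentin, was at 1.97 and 2.12 FPKM in AGS and 430 and 461 in MKN1, a difference of 7.195 (SE 0.174, adjusted p = 6.0e-07, limma). SPARC, a matrix-binding glycoprotein, was at 0.417 and 1.44 FPKM against 309 and 329 (7.43). TGFBI and TPM2, an adhesion protein and a tropomyosin, differed by 6.77 and 6.56.

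Of the transcription factors of the epithelial-mesenchymal transition, ZEB1, ZEB2, SNAI2, TWIST1, TWIST2 and FOXC2 were at 0.309 FPKM or less in AGS and at 3.61 to 28.5 in MKN1, whereas SNAI1 and SNAI3 were not. ZEB1 was at 0.309 and 0.0289 FPKM in AGS and 7.61 and 7.24 in MKN1 (2.86), and ZEB2 was listed at 0 in both AGS libraries and at 3.61 and 4.11 in MKN1. SNAI2 was listed at 0 in both AGS libraries and at 3.67 and 3.81 FPKM in MKN1. TWIST1 and TWIST2 stood at 14.3 to 24.6 FPKM in MKN1 and at 0.243 or less in AGS, and FOXC2 at 28.5 and 20.4 against 0.0540 and 0. SNAI1 was present in both lines, at 5.18 and 4.19 FPKM in AGS and 5.15 and 6.29 in MKN1, and did not differ beyond the threshold (0.24, adjusted p = 0.40). SNAI3 was lower in MKN1, at 2.14 and 1.49 FPKM in AGS and 0 and 0.0630 in MKN1 (-1.44).

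Other members give the state a mixed outline. CDH2, which encodes N-cadherin, was at 0.215 and 0.230 FPKM in AGS and 22.1 and 7.46 in MKN1. Its difference of 3.52 passed with all libraries (adjusted p = 0.00014), but not without the AGS siScramble library (adjusted p = 0.060) or the AGS siHOXB9 library (adjusted p = 0.063, limma). AXL, a receptor of mesenchymal carcinoma cells, was at 2.76 and 2.04 FPKM against 98.8 and 91.5 (4.83), and CD44, the hyaluronan receptor, at 27.8 and 19.2 against 244 and 242 (3.34). PDGFRA, a receptor of stromal cells, ran the other way, with 12.2 and 12.7 FPKM in AGS and 0 listed in both MKN1 libraries, and ACTA2, smooth muscle actin, was at 12.5 and 17.9 against 0.570 and 1.39 (-3.04). Of the 14 fibroblast markers 10 were tested, with 6 higher, 2 lower and summed levels of 41.2 and 62.0 FPKM in AGS and 346 and 360 in MKN1. FBLN1 made up most of the MKN1 sum, and MFAP5, COL1A1 and COL3A1 were at 17.4 to 52.7 FPKM there. PDGFRB, LUM and THY1 were at 0.829 to 6.90 FPKM in MKN1, and PDGFRA was at 0. The part of fibroblast RNA in the mesenchymal differences was not tested.

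**Figure D2:**
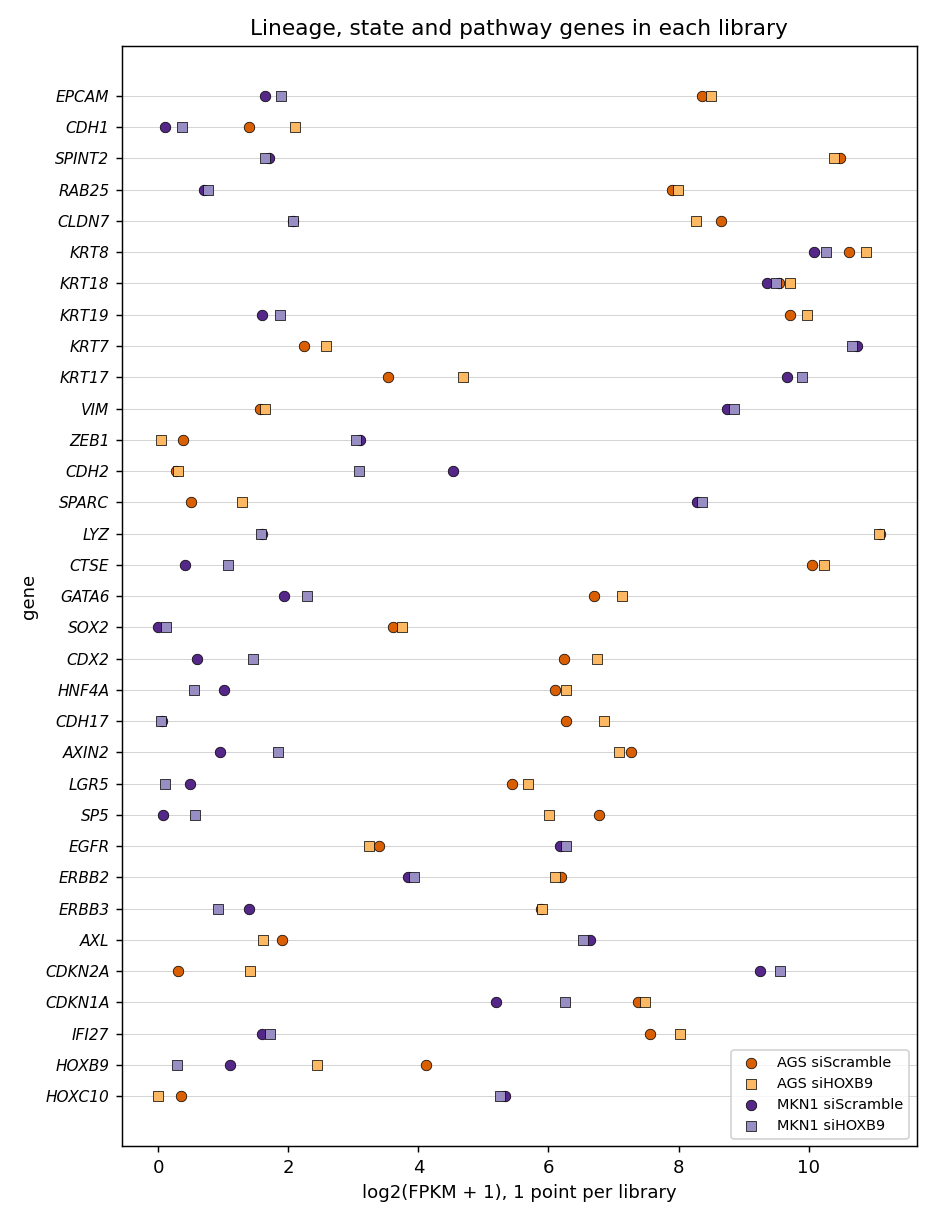
Level of selected genes in each library as log2(FPKM + 1), 1 point per library (orange for AGS, purple for MKN1, circles for siScramble, squares for siHOXB9). The circles and squares of a line lie together for most genes, with EPCAM, KRT19, LYZ and CTSE high in AGS, VIM, KRT7, KRT17 and CDKN2A high in MKN1, and KRT8 and KRT18 at like levels in both.

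The matrix genes changed in composition. Of 50 tested collagens and matrix glycoproteins 23 were higher in MKN1, 11 were lower and 16 passed in neither direction, where 19 were under 1 FPKM in both AGS libraries. Without either MKN1 library 7 were called lower. The higher ones included interstitial and basement membrane collagens. COL5A1 was at 0.208 and 0.107 FPKM in AGS and 175 and 197 in MKN1 (7.33), COL4A2 at 0.998 and 0.970 against 114 and 120 (5.90), and COL3A1 at 0.0874 and 0.0605 against 17.4 and 20.2 (4.20). FBLN1 and EFEMP1, glycoproteins of elastic fibres, differed by 7.47 and 7.17, and FN1 (fibronectin) was at 0.0576 and 0.0149 FPKM against 32.8 and 30.4 (4.97).

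The lower matrix genes were mostly those of the epithelial basement membrane. LAMA3, a chain of an epithelial laminin, was at 23.8 and 34.8 FPKM in AGS and at 2.34 and 2.62 in MKN1 (-3.10), while its partner LAMB3 did not differ beyond the threshold (70.3 and 75.5 against 66.4 and 92.1). COL17A1, the hemidesmosome collagen, was at 3.82 and 4.17 FPKM against 0.532 and 0.0719 (-1.96). The laminin receptor integrins followed, with ITGA6 at 123 and 111 FPKM in AGS and 15.4 and 22.6 in MKN1 (-2.59) and ITGB4 at 133 and 116 against 24.1 and 29.6 (-2.18). Of 11 tested integrins 5 were lower and 3 were higher, the latter being ITGA1, ITGA5 and ITGA3 (2.80, 1.78 and 1.36), receptors of collagen, fibronectin and laminin. ITGA5 did not pass without 1 AGS library (adjusted p = 0.096 to 0.12) and ITGA3 without 1 MKN1 library (adjusted p = 0.059 to 0.066, limma).

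Matrix enzymes split by gene. MMP14, a membrane-bound collagenase, was at 162 and 192 FPKM in AGS and 0.669 and 0.823 in MKN1 (-6.67). MMP2, the gelatinase that MMP14 protein activates, was at 0.155 and 0.165 FPKM against 20.7 and 31.6 (4.52). Of 27 tested crosslinking enzymes, proteases and inhibitors 11 were higher and 8 lower, with SERPINE2, LOXL2 and PLOD2 higher by 6.02, 5.91 and 5.22. MMP1 was at 185 and 49.2 FPKM in AGS and 0.0508 and 0.0549 in MKN1 (-6.52), and did not pass without the MKN1 siScramble or the MKN1 siHOXB9 library (adjusted p = 0.056 and 0.055, limma).

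Many genes of the stomach were high in AGS and at or near 0 in MKN1. Of 33 gastric lineage genes 15 were tested, of which 12 were lower in MKN1 and 3 higher, with a median of -3.62, and 17 were under 1 FPKM in all 4 libraries, MUC5AC among them. Of the 8 at 1 FPKM in both lines, 7 were lower and 1 higher. LYZ, the lysozyme of gastric glands and of myeloid cells, had the largest difference of all genes named by size: 2197 and 2163 FPKM in AGS and 2.009 and 1.997 in MKN1 (-9.50, SE 0.165, adjusted p = 4.9e-07, limma). CTSE, the aspartic protease of gastric surface cells, was at 1054 and 1200 FPKM against 0.331 and 1.11 (-9.39). PGC, the pepsinogen of chief and neck cells, was at 21.7 and 18.6 FPKM in AGS and listed at 0 in MKN1, and TFF1, the trefoil peptide of pit cells, was at 26.2 and 14.9 against 1.20 and 1.29 (-3.21).

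CLDN18, the claudin of stomach, was low in AGS, at 1.53 and 1.15 FPKM, and under the detection limit in MKN1, at 0.0274 and 0.0244. Its difference was -1.19 and went to -0.9987, short of the size threshold, with median centring. Gastric transcription factors were lower in MKN1 as well: GATA6 was at 103 and 139 FPKM against 2.81 and 3.87 (-4.81), GATA4 at 62.8 and 70.1 against 3.40 and 5.06 (-3.71), and SOX2 at 11.2 and 12.5 against 0 and 0.0887 (-3.62). BARX1, the factor of stomach mesenchyme, was listed at 0 in AGS and at 10.3 and 9.54 FPKM in MKN1, and the surface antigen PSCA was at 1.94 and 1.93 against 17.4 and 18.98 (2.71).

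Many of the tested intestinal genes, a group known from intestinal metaplasia of the stomach, were also high in AGS. Other listed genes, among them CDX1, MUC2, TFF3, SI and OLFM4, were under 1 FPKM in every library and were not tested. Of 18 tested genes 16 were lower in MKN1 and 2 higher, with a median of -3.38, and 11 of the 18 were under 1 FPKM in both MKN1 libraries. CDX2, the homeobox factor of intestine, was at 74.8 and 107 FPKM in AGS and 0.516 and 1.76 in MKN1 (-5.47). Its known targets CDH17 and VIL1, an intestinal cadherin and villin, were at 76.0 and 114 and at 161 and 170 FPKM in AGS and at 0.705 or less in MKN1 (-6.51 and -6.62). HNF4A and REG4, a nuclear receptor and a secreted lectin, differed by -5.40 and -7.89. ALPI and ANPEP, enzymes of the brush border, were higher in MKN1, with ANPEP at 0.513 and 0.774 FPKM against 29.8 and 37.8 (4.40). ALPI belongs to a family of similar alkaline phosphatase genes, so its counting is uncertain.

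Among 75 tested developmental transcription factors 35 were higher in MKN1, 28 were lower and 12 passed in neither direction. Of these, 31 were under 1 FPKM in both AGS libraries and 12 in both MKN1 libraries, and of the 32 at 1 FPKM in both lines 4 were higher and 16 lower. The lower genes included the FOXA factors of endoderm: FOXA2 was at 12.6 and 12.5 FPKM in AGS and listed at 0 in MKN1, FOXA3 was at 41.6 and 40.4 against 0.0503 and 0.324 (-5.15), and FOXA1 at 54.5 and 82.0 against 5.30 and 10.3 (-3.01). They also included MSX2, FOXC1, MEIS3 and RUNX1 (-3.53, -3.23, -2.32 and -1.41), which are known outside endoderm. MEIS3 and RUNX1 did not pass without the MKN1 siScramble library. The higher genes were mixed as well, with NKX2-1, SOX17 and FOXE1, factors of foregut or endoderm, higher by 2.39, 2.24 and 2.23. RUNX3, at 0.251 and 0.0337 FPKM in AGS and 88.9 and 92.6 in MKN1 (6.33), is a RUNX factor known as silenced in many gastric carcinomas. IRX3, at 0.0657 and 0 FPKM against 60.3 and 64.1 (5.93), NKX2-5, listed at 0 in AGS and at 29.8 and 23.2 in MKN1, and FOXF2, listed at 0 and at 21.4 and 19.8, are known from neural, cardiac and gut-mesenchyme development.

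HOX genes, whose expressed set records position along the body axis, differed by cluster. All 5 tested HOXA genes were higher in MKN1 and all 5 were under 1 FPKM in both AGS libraries, led by HOXA11 (listed at 0 in AGS, 10.2 and 12.9 FPKM in MKN1). HOXC10 was at 0.279 and 0 FPKM against 39.1 and 37.0 (5.11), and 4 of 5 tested HOXC genes were higher. HOXC4 was left out of this count because its symbol has several rows, which ran the other way. They were at 2.99 and 3.38 FPKM in AGS against 0.688 and 0.782 in MKN1, and at 1.62 and 1.75 against 0.427 and 0.299. In the HOXB cluster, 4 of 6 tested genes were lower and 1 was higher: HOXB6 was at 18.8 and 20.1 FPKM in AGS and 1.05 and 0.645 in MKN1 (-3.48), and HOXB7 at 0.141 and 0.0734 against 5.53 and 5.15 (2.52). HOXB9 itself, the gene targeted by the siRNA in 1 library of each line, had a difference of -2.59, which did not pass without the AGS siScramble (-1.75, adjusted p = 0.072), MKN1 siScramble (-3.0003, adjusted p = 0.13) or MKN1 siHOXB9 library (-2.19, adjusted p = 0.20, limma).

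**Figure D3:**
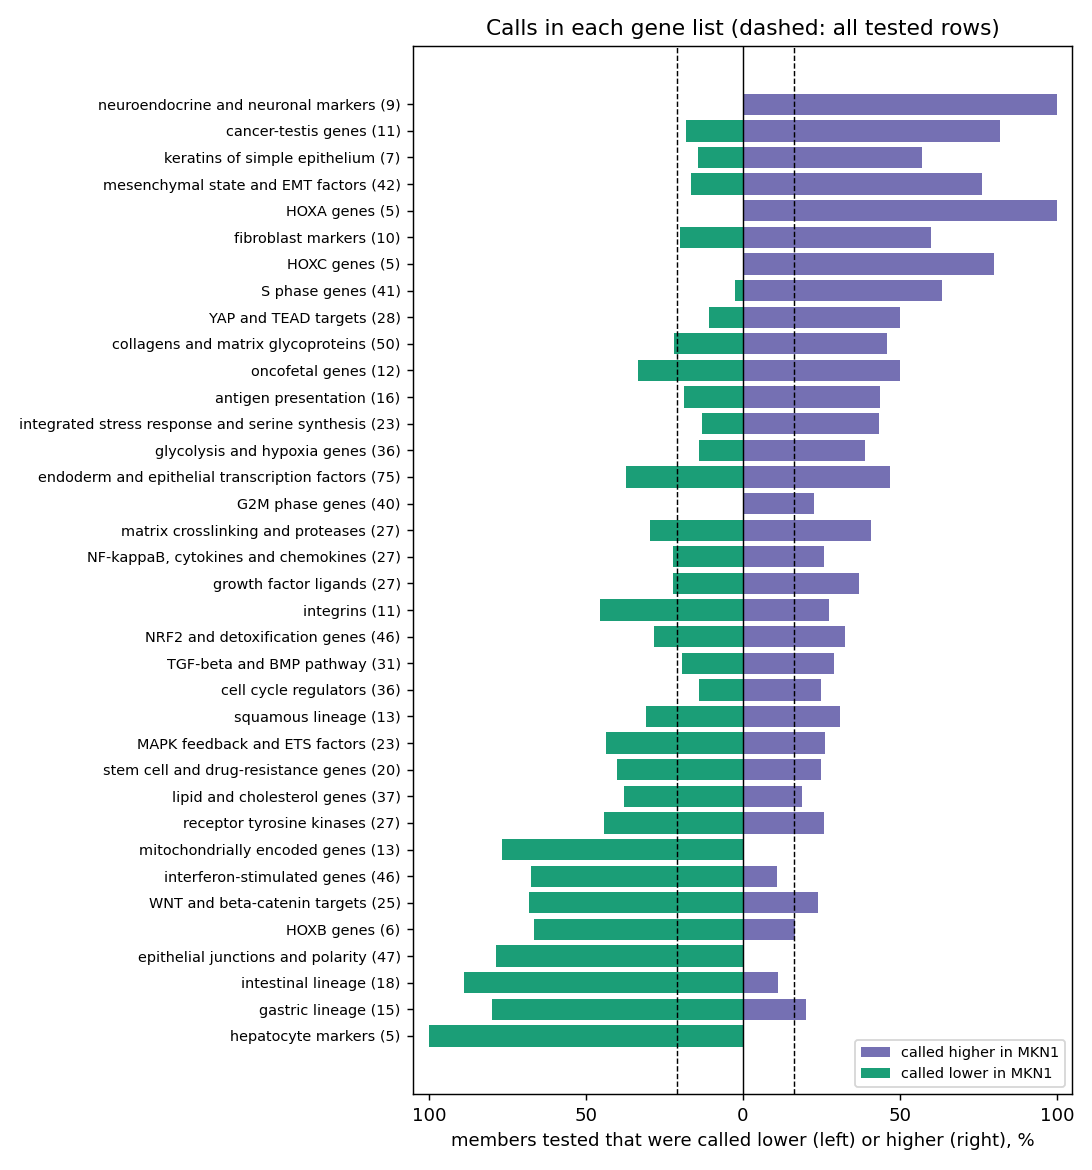
Share of the tested members of each gene list that were lower (bars to the left) or higher (bars to the right) in MKN1, in percent, for the reported lists with at least 5 tested members, whose number stands beside the name. The dashed lines mark the shares over all tested rows, 16.2% higher and 20.9% lower, and lists are ordered by their median difference.

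Receptor tyrosine kinases, which carry growth signals across the membrane, showed different sets. Of 27 tested genes 12 were lower in MKN1, 7 were higher and 8 passed in neither direction. EGFR was at 9.56 and 8.43 FPKM in AGS and 71.4 and 76.5 in MKN1 (2.91, adjusted p = 1.6e-05, limma), while its partners ran the other way. ERBB2 was at 72.1 and 67.4 FPKM against 13.3 and 14.3 (-2.26), and ERBB3 at 58.4 and 58.7 against 1.63 and 0.892 (-4.74). FGFR1 was at 0.0295 and 0.0645 FPKM in AGS and 14.4 and 19.6 in MKN1 (4.09), while FGFR4 was at 77.8 and 69.8 against 19.5 and 17.7 (-1.93). IGF1R differed by 2.33 and the ephrin receptors EPHA1, EPHA4, EPHB2 and EPHB3 by -4.12, -4.05, -3.08 and -2.53, the last with adjusted p = 0.053 (limma) without MKN1 siScramble.

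MET, the receptor of hepatocyte growth factor, was at 12.7 and 12.3 FPKM in AGS and 27.2 and 35.4 in MKN1 (1.25, adjusted p = 0.0014), which missed the threshold without the AGS siHOXB9 library (adjusted p = 0.056). FGFR2, the target of drugs in gastric cancer, was at 11.8 and 7.60 FPKM against 3.46 and 5.07, and its difference of -1.01 passed in none of the 4 fits without 1 library (adjusted p = 0.073 to 0.22, limma). Among 27 tested growth factors 10 were higher and 6 lower. CYR61, a matricellular protein, was at 6.59 and 8.28 FPKM in AGS and 169 and 164 in MKN1 (4.32), FGF2 was at 0.340 and 0.132 against 16.57 and 16.98 (3.85), and VEGFC and EPGN were listed at 0 in AGS and at 4.56 to 6.86 in MKN1. EFNB2, an ephrin ligand, was at 22.02 and 29.8 FPKM against 0.227 and 0.291 (-4.40).

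WNT signals stabilise beta-catenin, which then acts with TCF and LEF factors, and some targets feed back on the pathway. Of 25 tested targets and regulators 17 were lower in MKN1, 6 were higher and 2 passed in neither direction, with a median of -2.03. Of the 13 at 1 FPKM in both lines, 9 were lower and 2 higher. AXIN2, the feedback inhibitor most used as a reporter of the pathway, was at 152 and 135 FPKM in AGS and 0.930 and 2.57 in MKN1 (-5.78, SE 0.271, adjusted p = 4.0e-06, limma). LGR5, a receptor of intestinal and gastric stem cells, was at 42.5 and 50.2 FPKM against 0.411 and 0.0785 (-5.26). The ligases RNF43 and ZNRF3, which remove WNT receptors, differed by -2.59 and -1.61, and the secreted inhibitor DKK1 was at 264 and 386 FPKM against 76.2 and 78.7 (-2.03). ZNRF3 and DKK1 did not pass without MKN1 siScramble or MKN1 siHOXB9 (adjusted p = 0.066 to 0.082 and 0.052 to 0.054, limma).

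SP5, a direct target with TCF and LEF sites, was at 109 and 63.4 FPKM in AGS and 0.0490 and 0.477 in MKN1 (-6.08), and its promoter window is shown as the 1 of 10 windows, found for 10 of the 17 lower members, that holds the letters CTTTGAT, or its reverse complement ATCAAAG, here in capitals (RefSeq, GRCh38.p14, from 250 bases before to 50 after the start).
SP5, chr2:170715087-170715386, plus strand: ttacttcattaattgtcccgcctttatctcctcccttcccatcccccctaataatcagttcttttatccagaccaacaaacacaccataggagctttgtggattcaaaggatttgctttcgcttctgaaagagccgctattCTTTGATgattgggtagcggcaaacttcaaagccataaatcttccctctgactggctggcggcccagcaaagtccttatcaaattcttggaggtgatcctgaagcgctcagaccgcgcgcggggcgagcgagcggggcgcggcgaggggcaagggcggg
The motif was in 1.3% of windows of tested protein-coding genes and 2.7% of all windows. Other members did not fall with the pathway. TBX3 was at 0.0195 and 0.0405 FPKM in AGS and 18.1 and 22.7 in MKN1 (4.37), and DKK3, NKD2 and SFRP1 were also higher (3.89, 3.46 and 3.24). MYC was at 111 and 114 FPKM against 154 and 182 (0.57), and CCND1 at 241 and 283 against 195 and 310 (-0.09, and 0.10 with median centring), and neither reached the size threshold.

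YAP and TAZ are coactivators that act through TEAD factors in spread and mesenchymal cells. Of 28 tested targets and components 14 were higher in MKN1, 3 were lower and 11 passed in neither direction, with a median of 1.03, and of the 22 at 1 FPKM in both lines 9 were higher and 2 lower. IGFBP3, FJX1 and CYR61 were higher by 5.31, 4.95 and 4.32. TEAD1 was at 17.2 and 15.8 FPKM in AGS and 52.0 and 39.6 in MKN1 (1.41) and WWTR1, which encodes TAZ, at 11.2 and 8.84 against 26.9 and 29.1 (1.40, with adjusted p = 0.055 to 0.060, limma, without 1 MKN1 library), while YAP1 at 64.9 and 66.3 against 82.4 and 106 did not reach the size threshold. ANKRD1, a classical target, ran against the group, at 63.6 and 51.9 FPKM in AGS and 0.253 and 0.882 in MKN1 (-5.25), and TEAD2 differed by -1.68.

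TGF-beta family genes split evenly, with 9 of 31 tested genes higher, 6 lower and a median of 0.03. PMEPA1, a feedback target, was at 0.135 and 0.443 FPKM in AGS and 200 and 359 in MKN1 (7.72), and TGFB2 was at 0.123 and 0.0170 against 16.04 and 16.98 (4.03). On the BMP side BMP4, BMPR2 and the target ID2 were lower, ID2 at 114 and 112 FPKM against 10.6 and 6.67 (-3.60). BMP2 was called higher, with differences of 1.645 to 2.159 in the fits without 1 library, but not without either MKN1 library. Without the MKN1 siHOXB9 library 5 members were called higher. The feedback genes of the MAPK pathway were mixed, with 6 of 23 higher and 10 lower, the latter 5 or 6 in number without AGS siScramble, MKN1 siScramble or MKN1 siHOXB9. DUSP4 was at 125 and 107 FPKM in AGS and 21.6 and 21.6 in MKN1 (-2.37) and SPRY1 at 11.6 and 6.32 against 0.0415 and 0.0900 (-3.17), whereas DUSP1, at 3.20 and 4.33 against 90.6 and 89.3 (4.26), was higher.

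The inhibitors of the cell cycle differed most at CDKN2A, the locus of p16 and p14ARF. It was at 0.237 and 1.67 FPKM in AGS and 607 and 755 in MKN1 (8.54, SE 0.229, adjusted p = 6.6e-07, limma). The table does not separate the transcripts of p16 and p14ARF, and the locus shares exons with a neighbouring annotated gene. Its neighbours on chromosome 9 were present in both lines: MTAP was at 50.9 and 51.1 FPKM in AGS and 29.3 and 29.2 in MKN1 (-0.78, under the size threshold), and CDKN2B was at 14.9 and 33.0 against 7.21 and 14.0. CDKN1C (p57) and CCND3 were higher by 3.22 and 2.32, and CCNE1 was at 29.1 and 16.8 FPKM against 10.8 and 6.21 (-1.33). Neither CCNE1 (adjusted p = 0.073 to 0.22) nor CDKN2B (-1.07 with all libraries, then adjusted p = 0.098 to 0.49, limma) passed in any of the 4 fits without 1 library. CDKN1A (p21) was at 165 and 179 FPKM against 35.7 and 75.0 (-1.71), and did not pass without AGS siScramble (adjusted p = 0.11) or AGS siHOXB9 (adjusted p = 0.12, limma).

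Genes of DNA replication were higher in MKN1, by moderate amounts that moved with the siRNA. Of 41 tested S phase genes 26 were higher, 1 was lower and 14 passed in neither direction, with a median of 1.24. MCM2, a subunit of the replicative helicase, was at 53.04 and 26.2 FPKM in AGS and 220 and 261 in MKN1 (2.65), MCM7 at 90.2 and 53.5 against 282 and 318 (2.09), and RRM1, a subunit of ribonucleotide reductase, at 57.9 and 25.3 against 136 and 161 (1.92). GINS1, at 30.1 and 19.03 FPKM against 6.49 and 5.07 (-1.89), was the lower member. The summed level of the list was 1595 and 925 FPKM in AGS and 2659 and 2801 in MKN1, and the median difference was 0.91 under siScramble and 1.59 under siHOXB9. Without AGS siHOXB9 the higher count was 13, and without either MKN1 library it was 2. In those 2 fits MCM2, MCM7, RRM1 and GINS1 did not pass (adjusted p = 0.067 to 0.16, limma).

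Genes of G2 and mitosis were mostly under the size threshold. Of 40 tested, 9 were higher, 0 were lower and 31 passed in neither direction, with a median of 0.47, which was 0.15 under siScramble and 0.80 under siHOXB9. PLK1, a mitotic kinase, was at 81.1 and 34.03 FPKM in AGS and 133 and 122 in MKN1 (1.26), and MKI67, the proliferation antigen, at 8.42 and 4.50 against 4.93 and 3.50 (-0.48, adjusted p = 0.10). The higher count was 16 without AGS siScramble, 1 without AGS siHOXB9 and 0 without either MKN1 library, and PLK1 did not pass without AGS siHOXB9 or either MKN1 library (adjusted p = 0.053 to 0.29, limma). For all 40 genes the difference between the lines was greater under siHOXB9 than under siScramble, as it was for 35 of 41 S phase genes and for 8888 of the 13758 tested rows.

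**Figure D4:**
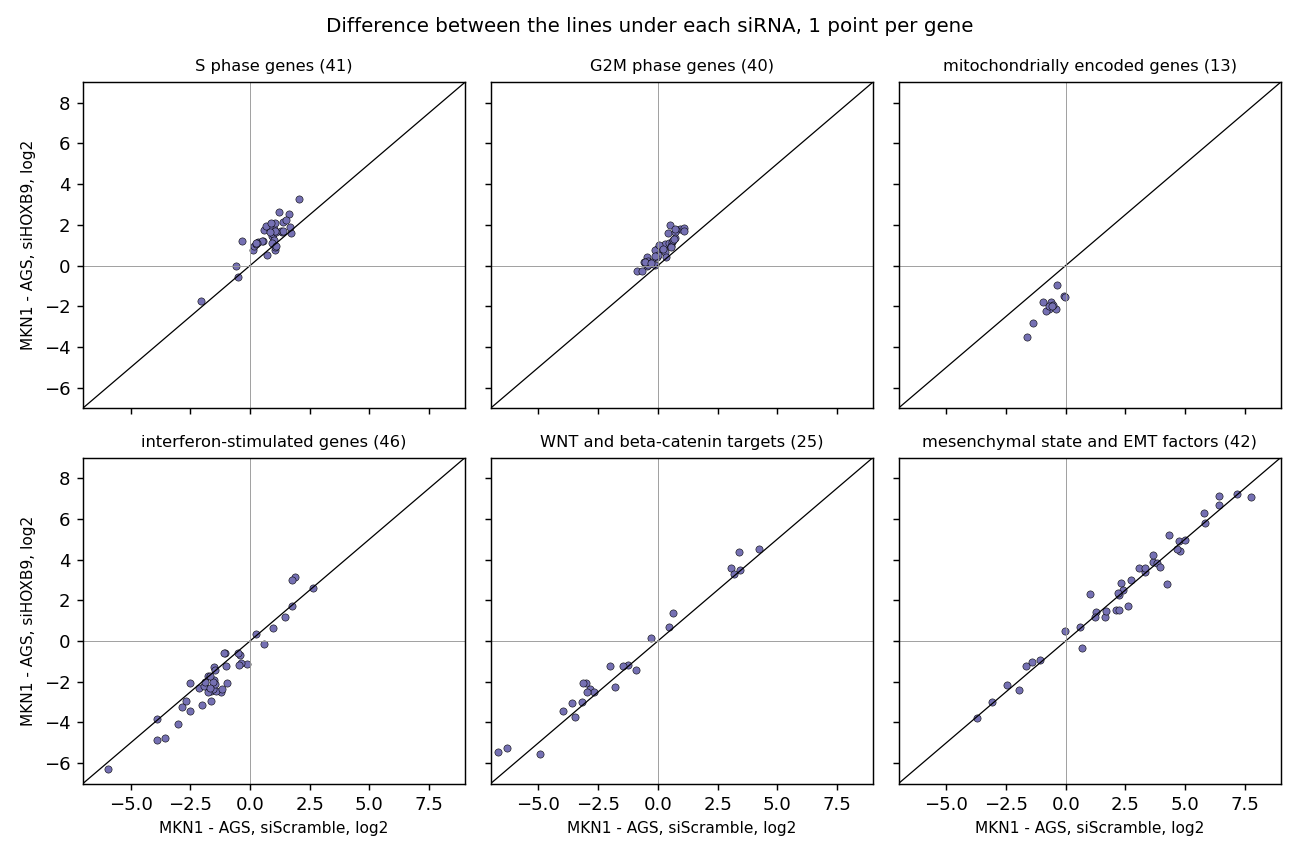
Difference between MKN1 and AGS under siHOXB9 (vertical axis) against that under siScramble (horizontal axis), in log2(FPKM + 1), 1 point per tested gene of 6 lists. Points on the diagonal have the same difference under both siRNAs, and 35 of the 41 S phase genes and all 40 G2M phase genes lie above it and all 13 mitochondrially encoded genes below it.

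Mitochondrially encoded transcripts were lower in MKN1 under both siRNAs, and the gap was wider under siHOXB9. Of the 13 genes 10 were lower and 3 passed in neither direction, with a median of -0.62 under siScramble and -1.97 under siHOXB9. Their summed level was 7040 and 11860 FPKM in AGS and 4798 and 3274 in MKN1. MT-ND6 was at 257 and 501 FPKM against 82.3 and 43.4 (-2.57) and MT-CO1 at 919 and 1706 against 525 and 365 (-1.52). The count was 6 without AGS siScramble, 2 without AGS siHOXB9 and 0 without either MKN1 library, with MT-ND6 at adjusted p = 0.063 to 0.097 and MT-CO1 at 0.084 to 0.19 (limma) in the fits without AGS siHOXB9 or either MKN1 library. These levels move with cell state and with the handling of RNA, and their part in the other differences was not tested.

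Interferon-stimulated genes, which cells make on sensing viral nucleic acid or interferon, were lower in MKN1. Of 46 tested genes 31 were lower, 5 were higher and 10 passed in neither direction, with a median of -1.51 under siScramble and -2.04 under siHOXB9. Of the 30 at 1 FPKM in both lines 19 were lower and 2 higher. Without MKN1 siScramble 12 were called lower and without MKN1 siHOXB9 14. IFI27, a mitochondrial protein much used as a marker of interferon response, was at 187 and 258 FPKM in AGS and 2.02 and 2.31 in MKN1 (-6.13, SE 0.189, adjusted p = 9.5e-07, limma). IRF9, the DNA-binding subunit of the ISGF3 complex, was at 60.9 and 83.0 FPKM against 3.18 and 1.84 (-4.39).

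The promoters of IFI27 and IFIT1 are shown because they carry the interferon-stimulated response element that ISGF3 binds. The windows are those of RefSeq on GRCh38.p14, from 250 bases before to 50 after the start, and capitals mark GAAA, any 2 bases and GAAA, or on the other strand TTTC, any 2 bases and TTTC.
IFI27, chr14:94110486-94110785, plus strand: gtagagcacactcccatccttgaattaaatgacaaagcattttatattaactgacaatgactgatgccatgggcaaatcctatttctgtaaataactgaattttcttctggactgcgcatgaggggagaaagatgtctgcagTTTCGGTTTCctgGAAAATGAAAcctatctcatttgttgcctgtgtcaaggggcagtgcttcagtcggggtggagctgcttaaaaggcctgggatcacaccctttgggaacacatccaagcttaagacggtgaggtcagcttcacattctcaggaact
IFIT1, chr10:89392373-89392672, plus strand: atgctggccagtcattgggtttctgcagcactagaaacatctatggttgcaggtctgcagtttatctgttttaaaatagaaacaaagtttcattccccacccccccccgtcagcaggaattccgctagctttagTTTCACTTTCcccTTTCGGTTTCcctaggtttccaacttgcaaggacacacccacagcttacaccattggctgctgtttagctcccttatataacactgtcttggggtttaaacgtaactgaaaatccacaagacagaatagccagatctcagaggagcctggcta
Each window holds 2 matches, on opposite strands in IFI27 and on the same strand in IFIT1. Of the 31 lower members 24 had a window, and the element was in 15 of these. It was in 9 of 12 windows of tested members that were not lower, against 2.7% of windows of tested protein-coding genes and 3.7% of all windows. With fewer than 80% of the lower members covered, the groups were not compared.

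IFIT1, which binds foreign RNA, was at 14.6 and 36.8 FPKM in AGS and 0.912 and 1.22 in MKN1 (-3.56), and did not pass without MKN1 siScramble or MKN1 siHOXB9 (adjusted p = 0.070 to 0.077, limma). BST2 (tetherin) ran against the list, at 48.3 and 56.9 FPKM in AGS and 307 and 352 in MKN1 (2.63), as did IFITM2 (2.37), HERC6, HERC5 and GBP1. Of these, IFITM2 did not pass without 1 MKN1 library (adjusted p = 0.082 to 0.091) and HERC6 without 1 AGS library (adjusted p = 0.079 to 0.083, limma). IFITM3 was high in both lines, at 452 to 603 FPKM, and did not reach the size threshold.

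Inflammatory genes under NF-kappaB did not follow the interferon genes. Of 27 tested, 7 were higher, 6 were lower and 14 passed in neither direction, and without either MKN1 library 3 were called lower. IL6 was listed at 0 in AGS and at 16.6 and 12.4 FPKM in MKN1, and complement C3 was at 1.13 and 0.385 against 54.5 and 87.5 (5.35). CXCL16, CXCL1 and CXCL3 were lower (-3.96, -2.45 and -2.31), CXCL1 with adjusted p = 0.069 to 0.072 (limma) without 1 MKN1 library. In antigen presentation 7 of 16 tested genes were higher and 3 lower. B2M was at 1668 and 2255 FPKM in AGS and 2487 and 2666 in MKN1 (0.41, not past the threshold).

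Serine synthesis differed at its first step. PHGDH, the first enzyme of serine synthesis, was at 0.277 and 0.292 FPKM in AGS and 106 and 83.6 in MKN1 (6.21, adjusted p = 1.3e-06, limma), while the next enzymes PSAT1, at 167 and 61.1 against 92.8 and 89.0, and PSPH, at 39.2 and 13.6 against 17.7 and 15.3, did not differ beyond the threshold. The stress response list around them had 10 of 23 genes higher and 3 lower, with 6 and 5 higher without MKN1 siScramble and without MKN1 siHOXB9, and at most 1 lower without either of these or AGS siScramble. Its members SLC7A5 and SLC3A2, the subunits of a large amino acid transporter, were at 138 and 64.8 and at 175 and 139 FPKM in AGS and at 715 to 992 in MKN1 (3.22 and 2.30). SLC7A5 did not pass without MKN1 siScramble (adjusted p = 0.063) or MKN1 siHOXB9 (adjusted p = 0.069, limma).

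Of 37 tested lipid genes 7 were higher and 14 lower, the latter 6 without MKN1 siScramble. The higher genes included the fatty acid desaturases FADS1 and FADS2 and the elongase ELOVL5. FADS1 was at 0.283 and 0.554 FPKM in AGS and 95.5 and 93.3 in MKN1 (6.08), ELOVL5 at 0 and 0.0311 against 55.3 and 63.6 (5.89) and FADS2 at 1.23 and 0.617 against 34.1 and 36.5 (4.26). The sterol enzymes SQLE and LSS were lower (-2.68 and -2.18). HMGCS1, IDI1 and INSIG1, of the same pathway, were lower with all libraries (-1.44, -1.04 and -1.01) but did not pass in every fit without 1 library, and CYP51A1, DHCR7 and FDFT1 did not reach the size threshold.

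Of 36 glycolysis and hypoxia genes 14 were higher and 5 lower, with 7 higher and 2 to 3 lower without either MKN1 library. LDHA was at 491 and 304 FPKM in AGS and 1339 and 1315 in MKN1 (1.78, with adjusted p = 0.082 to 0.085, limma, without 1 MKN1 library) and BNIP3 at 0.114 and 0.301 against 27.7 and 31.7 (4.67), while the glucose transporter SLC2A1 at 544 and 404 against 262 and 351 did not reach the size threshold. Detoxification genes had 15 of 46 higher and 13 lower, with 7 to 8 in each direction in fits without AGS siHOXB9 or MKN1 siHOXB9 and 8 lower without MKN1 siScramble. The NRF2 target NQO1 was high in both lines, at 815 and 740 FPKM in AGS and 450 and 547 in MKN1, and was under the size threshold (-0.65). GPX2, the glutathione peroxidase of gut epithelium, was at 67.8 and 96.2 FPKM against 0.253 and 0.420 (-5.94), and TXNRD1 at 108 and 79.7 against 525 and 433 (2.35).

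Genes normally silent outside germ cells or the embryo were also told apart by line. Of 54 cancer-testis genes 42 were under 1 FPKM in all 4 libraries, and of 11 tested 9 were higher in MKN1, all 9 under 1 FPKM in both AGS libraries. MAGEA6, MAGEA1 and MAGEB2 were at 17.0 to 27.6 FPKM in MKN1 and at 0.0592 or less in AGS, and members of this family are near-identical in sequence, so their values may be split among copies. PAGE4, a gene of prostate and placenta named for its size of difference, went the other way, at 377 and 518 FPKM in AGS and listed at 0 in MKN1. The imprinted gene PEG10 and the fetal RNA-binding protein IGF2BP1 were higher in MKN1 (5.58 and 4.25), and IGF2BP2 was lower (-2.38, with adjusted p = 0.058, limma, without AGS siHOXB9). Of the fibrinogen and apolipoprotein genes on the hepatocyte list all 5 tested were lower. All 5 were under 1 FPKM in both MKN1 libraries and so were tested through AGS alone. APOA2 was at 107 and 128 FPKM in AGS and listed at 0 in MKN1. The whole hepatocyte list, untested genes included, summed to 155 and 221 FPKM in AGS and 1.497 and 1.22 in MKN1.

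Neuroendocrine and neuronal genes were tested at 9 of 26 names, and all 9 were higher in MKN1, of which 8 were under 1 FPKM in both AGS libraries. GAL, the neuropeptide galanin, was at 0.137 and 0.143 FPKM in AGS and 245 and 230 in MKN1 (7.71), and the prohormone convertase PCSK1 at 0.0159 and 0.0166 against 26.8 and 27.1 (4.78). TUBB3, a neuronal tubulin, was left out of the count because its symbol has 2 rows. Its expressed row, which shares exons with another gene, was at 306 and 357 FPKM in AGS and 94.5 and 104 in MKN1 and ran the other way (-1.73). CHGA, a defining gene of neuroendocrine cells, was under 1 FPKM in every library. Stem cell and resistance genes were mixed, with 5 of 20 higher (3 without AGS siHOXB9) and 8 lower (5 without MKN1 siScramble). BMI1 differed by -2.05, ABCG2, the drug efflux pump, by 2.58, and ALDH1A1 was at 5.38 and 16.3 FPKM in AGS and 0.0470 and 0.180 in MKN1 (-3.24), which did not pass without MKN1 siScramble (adjusted p = 0.10) or MKN1 siHOXB9 (adjusted p = 0.091, limma).

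Some genes were listed at 0 in a line and present in the other. There were 74 protein-coding genes at 0 in both AGS libraries and at 5 FPKM or more in both MKN1 libraries, and 45 genes the other way around. MT1E, a metallothionein, was at 114 and 113 FPKM in MKN1, and SPOCK1 and MFAP2, a matrix proteoglycan and a microfibril protein, were at 90.7 and 107 and at 54.3 and 65.2. REG1A, a regenerating peptide of the gut, was at 128 and 202 FPKM in AGS, and FUT2, the fucosyltransferase that sets secretor status, at 59.8 and 58.8. Such a listing can mean a level under the detection limit given above, or a failed estimate of the FPKM value. It does not tell a silent gene from a deleted one.

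Several of the largest differences lay outside these groups. IGFBP7, a secreted binding protein of growth factors, was at 1.18 and 0.959 FPKM in AGS and 819 and 937 in MKN1 (8.73), BASP1, a membrane-bound cytoskeletal protein, at 0.427 and 0.938 against 597 and 677 (8.58), and EEF1A2, the tissue-restricted elongation factor, at 0.568 and 0.805 against 447 and 440 (8.05). FSCN1, the actin bundler fascin, was at 2.31 and 1.94 FPKM against 519 and 594 (7.48). On the AGS side PLA2G2A, a secreted phospholipase of the gut, was at 2377 and 2578 FPKM against 2.57 and 2.37 (-9.48), CST1, a cystatin, at 862 and 628 against 0.882 and 1.499 (-8.41), and GATM, an enzyme of creatine synthesis, at 493 and 666 against 0.756 and 1.44 (-8.11).

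Differences were unevenly spread over the chromosomes. Among 11207 protein-coding genes with 1 row on chromosomes 1 to 22 and X, 16.5% were higher in MKN1 and 21.2% lower. On chromosome 19, 9.5% were higher and 40.3% lower with a median of -0.70, and chromosomes 13 and 14 had 40.9% and 42.0% lower and medians of -0.78 and -0.80. Chromosome 5 had 28.2% higher and 12.9% lower with a median of 0.27, and chromosome 18 had 30.4% and 12%. In windows of 20 neighbouring tested genes, the highest median was 1.98, on chromosome 5 from base 850291 to 10657816 (BRD9 to ANKRD33B), where 16 genes were higher and 3 lower. A second window on the same arm, from 14143702 to 35879603 (TRIO to IL7R), had 17 higher and 0 lower with a median of 1.78. The lowest, at -2.39, lay on chromosome 19 from 48332356 to 48868632 (TMEM143 to PLEKHA4), where 0 genes were higher and 17 lower. Over all 10770 such windows, which overlap, the 1st and 99th percentiles of the median were -1.39 and 1.05. Copy number was not measured, and its part in these medians was not tested.

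**Figure D5:**
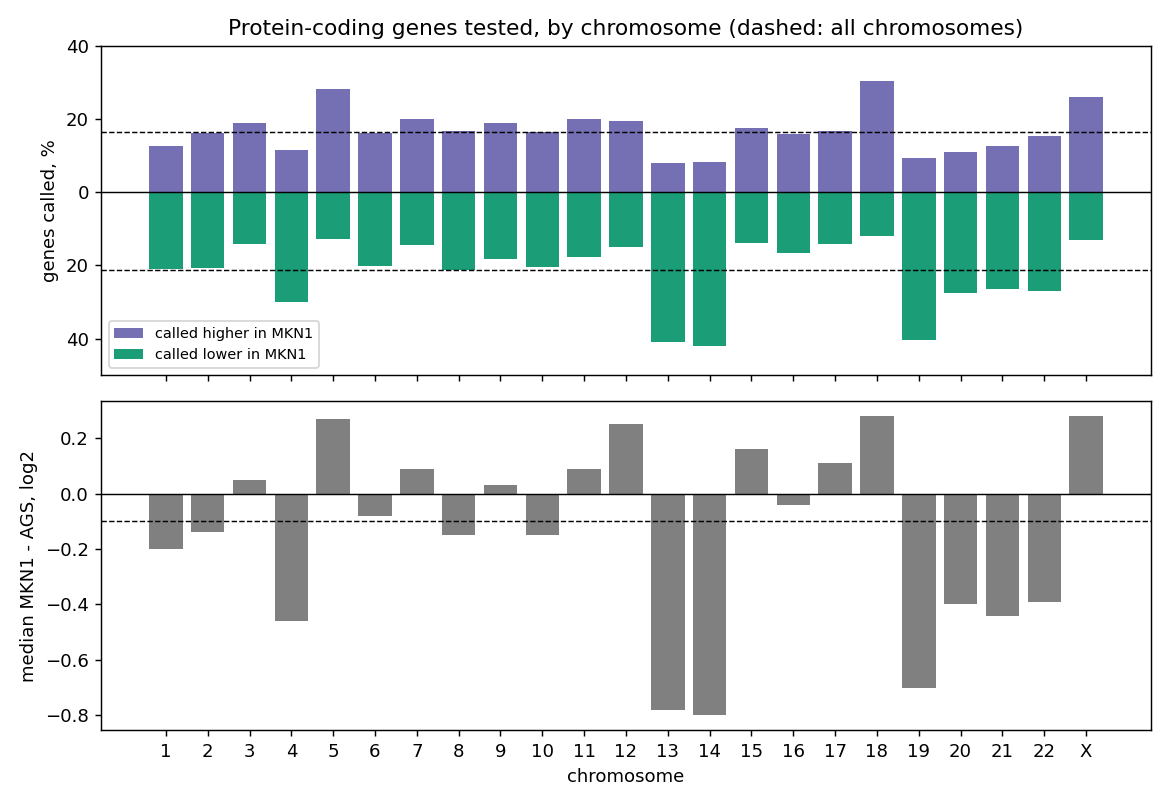
Share of tested protein-coding genes higher (bars up) or lower (bars down) in MKN1 on each chromosome, in percent, above the median difference in log2(FPKM + 1). Dashed lines give the values over all chromosomes, 16.5% and 21.2% and a median of -0.10, and chromosomes 13, 14 and 19 have the lowest medians.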

How the data were processed

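All 4 libraries were poly(A) RNA prepared with a NEBNext Ultra kit and sequenced on an Illumina instrument, per the labels. The deposited table holds FPKM values computed by the authors, 1 column per library and 1 row per gene symbol. The builds GRCh38 and hg38 stand in the submitters' processing notes. Which aligner, quantifier and annotation were used is not given in the sources used here, and no strand-specific step is named, so overlapping genes cannot be told apart.

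Rows that reached 1 FPKM in 2 or more libraries were fitted as log2(FPKM + 1) with limma 3.58.1 (R 4.3.3; siRNA block, intensity trend, 1 residual degree of freedom, 6.17 prior degrees of freedom), two-sided, with Benjamini-Hochberg adjustment at 0.05 and a size of at least 1. Standard errors ran from 0.16 to 1.82 with a median of 0.21. A symbol with several rows was kept as separate rows and left out of the lists. Depth came from low FPKM values of single-transcript genes, of which 67.2% to 70.8% lay within 0.05 of a whole fragment number; intervals and floors cover counting error only. The fit was tested on simulated data.

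The comparison and the 40 gene lists were chosen with earlier results of these data known. Genes named were the 15 largest called differences in each direction (protein-coding, 1 row, at least 5 FPKM in both libraries of the higher line), up to 4 called members of a list and a standing set; others were picked after their values were seen. Some genes and 1 gene list are not reported here. Promoters came from RefSeq (GRCh38.p14), matched by symbol and position for 9146 of 11220 tested genes (81.5%); fewer than 80% of the genes called higher or lower had one, so a check of promoter composition over those sets is void. Alternatives were the pseudocount, filter, scaling, variance and block settings and leaving out each library, where the lone library of a line is assumed to vary like the other line.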

Additional observations from a re-analysis of the deposited data

Results flagged for a closer look

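Attention was drawn to 2 genes, CCND1 and HMGA2, and to 3 lists. In these the difference between MKN1 and AGS had opposite signs under siScramble and under siHOXB9. Other tested genes did so as well, such as PSAT1 (-0.84 and 0.54) and PSPH (-1.11 and 0.16). The difference between the siRNAs was not tested, since each line has 1 library per siRNA. CCND1 (cyclin D1) had a difference of -0.0857 over both siRNAs, with -0.30 under siScramble and 0.13 under siHOXB9. HMGA2, an architectural chromatin protein, was at 14.8 and 12.1 FPKM in AGS and at 3.91 and 22.8 in MKN1, a difference of -0.41 that was -1.69 under siScramble and 0.86 under siHOXB9. The median of the squamous list was -0.40 over both, -0.50 under siScramble and 0.20 under siHOXB9. The medians of the TGF-beta and BMP list (0.03, from -0.10 and 0.32) and of the detoxification list (0.14, from -0.04 and 0.24) also changed sign. Neither CCND1 nor HMGA2 passed the test between the lines, and the medians were not tested. In all, 31 tested rows had differences of at least 1 with opposite signs under the 2 siRNAs.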

How the results depend on the processing

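No paired analysis was possible because each line and siRNA has 1 library with no replicate number; the siRNA itself was a block in the fit, and without it 2201 rows were higher and 2827 lower. Against 2229 higher and 2880 lower, a pseudocount of 0.1 gave 2454 and 3254, quantile normalization 2431 and 2562, and median centring 2671 and 2332. Without a filter (24308 rows) the counts were 1271 and 1479, among genes that share no exon 1015 and 1326, at any size 3596 and 4533, at a size of 2 876 and 1019, and among rows at 1 FPKM in both lines 1223 and 1979. Leaving out a library in turn gave 1562 to 2089 higher and 1855 to 2319 lower. These fits hold 3 libraries and no siRNA term.

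Genes at 0 in AGS were 222 and in MKN1 123 when 1 FPKM in the other line sufficed, against 74 and 45 at 5 FPKM. The highest window median was 2.99 with 10 genes and 1.90 with 40 (1.98 with 20), and the lowest -3.09 and -1.70 (-2.39 with 20). Of 187 tested and reported genes of the naming rule, 155 kept their side of the threshold without a filter and 162 to 177 without 1 library. Signs turned for 2 genes that passed in no direction: CCND1 (0.10 with median centring, 0.0304 without AGS siHOXB9, 0.25 without MKN1 siScramble) and HMGA2 (0.73 without MKN1 siScramble). The cause was not tested. Depth limits genes under about 0.14 FPKM.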

Other observations

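The following groups were chosen after their values were seen. Zinc finger genes named ZNF are numerous on chromosome 19, and of 157 tested there 79 were lower in MKN1 and 8 higher, with a median difference of -1.01. Of the 700 other tested protein-coding genes on that chromosome 266 were lower and 73 higher (-0.65), and of 189 ZNF genes elsewhere 34 were lower and 12 higher (-0.29). All 6 tested kallikrein-related peptidases (KLK), which also lie on chromosome 19, were lower, with a median of -2.92. KLK7, at 3.77 and 3.85 FPKM in AGS and listed at 0 in MKN1, was tested through AGS alone and could only be lower. All 5 tested genes of the MAGEA and MAGEB families were higher, while of other MAGE genes MAGED1 was higher, MAGED2 passed in neither direction and MAGEF1 was lower. MAGEA6, MAGEA1 and MAGEB2, under the detection limit in AGS, were tested through MKN1 alone. How many members of each family were tested in this way is not given. Of 5 metallothioneins 4 were higher, with a range from -1.24 to 6.84.

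Of 307 tested long noncoding RNAs 58 were higher and 70 lower. UCA1, a noncoding RNA described in bladder and other carcinomas, was at 160 and 122 FPKM in AGS and 0.0426 and 0.415 in MKN1 (-6.86). HOTAIRM1, transcribed within the HOXA cluster, was listed at 0 in AGS and at 7.66 and 9.03 FPKM in MKN1, as the HOXA genes were at or near 0 in AGS. VIM-AS1 was at 0.507 and 1.14 FPKM against 197 and 223 (6.87), but it shares an exon with VIM and strand is not known to have been used, so it cannot be told apart from VIM itself.

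CpG content was described for promoters of genes with large differences. Of 45 genes listed at 0 in both MKN1 libraries and at 5 FPKM or more in both AGS libraries 36 had a RefSeq window, 33.3% of which had a CpG observed-to-expected ratio of at least 0.6, against 84.0% of the windows of all tested protein-coding genes, with medians of 0.44 and 0.85. Of 74 genes listed at 0 in AGS the other way around 53 had a window, of which 66.0% reached that ratio (median 0.74). The share was 68.7% of 83 windows for genes higher by over 5 and 32.7% of 55 windows for genes lower by over 5. Fewer than 80% of the genes in the last 3 sets had a window, so no set is compared with another. These genes were chosen by their level, and their tissue-restricted expression was not set against CpG content.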
